A study of Mus musculus with 19 samples.

Results

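The genes described here control the entry of pyruvate into mitochondrial oxidation. They are the 4 pyruvate dehydrogenase kinases (Pdk1, Pdk2, Pdk3 and Pdk4), the 2 pyruvate dehydrogenase phosphatases (Pdp1 and Pdp2), the 2 subunits of the E1 component of the pyruvate dehydrogenase complex (Pdha1 and Pdhb), and the 2 subunits of the mitochondrial pyruvate carrier (Mpc1 and Mpc2). These 10 genes were listed by symbol for their place in the pathway, with earlier results of these data known, among the 55487 genes of the files. All 10 were found and all 10 passed the filter on low counts, so none is missing from the tests.

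The transcripts were measured in crypts of the small intestine from 19 C57BL/6 mice, by RNA sequencing of 1 library per mouse. Crypts are the epithelial pits that hold intestinal stem cells and dividing progenitors. The groups were 5 NT+/+ and 4 NT-/- mice fed ad libitum (AL), and 5 NT+/+ and 5 NT-/- mice fasted for 48 h with water (Fast). NT is neurotensin, a peptide hormone of enteroendocrine cells encoded by Nts, and NT-/- mice carry its knockout in the whole body rather than in crypts alone. Males and females of 10 to 16 weeks were used, fed controls were sex- and age-matched littermates on standard chow, and crypts were released with EDTA from the proximal part of the small intestine. The study also kept mice with an Lgr5-EGFP-IRES-CreERT2 allele, and the labels do not say whether the sequenced mice carried it. The question asked of each gene was whether fasting changed its transcript level in each genotype, and whether the loss of NT changed it in either diet.

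The pyruvate dehydrogenase complex converts pyruvate, the end product of glycolysis, to acetyl-CoA. Phosphorylation of its E1 alpha subunit by the kinases switches the complex off, and the phosphatases switch it on again. In fasted muscle, heart and liver, Pdk4 is a well-known transcript that rises with fatty acid use and spares glucose carbon. The carrier, a complex of both Mpc subunits, brings pyruvate across the inner mitochondrial membrane, upstream of the enzyme. Transcript levels do not measure phosphorylation or flux.

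The libraries held between 9059418 and 35068669 counts, with a median of 18541770. Nts separated the genotypes as the titles say, at 6.75 to 8.59 CPM (counts scaled by library size) in NT+/+ AL and 0.144 to 0.746 CPM in NT-/- AL mice. After fasting it was at 5.42 ± 0.267 CPM (SD, n = 5) in NT+/+ Fast mice and 0.433 ± 0.230 CPM (n = 5) in NT-/- Fast mice. NT+/+ Fast 5 carries the genotype label NT -/-, against its title, and it was grouped by its title. The Nts level of that group, with this mouse in it, ran from 4.98 to 5.71 CPM. NT+/+ AL 1 stood apart from the other libraries of its group: the chi-square per gene between it and each of them ranged from 149.9 to 219, against 15.3 to 59.5 for every other pair within a group. Without NT+/+ AL 1 the effects of fasting in NT+/+ mice were 4.69 for Pdk4, 0.56 for Pdk2, -0.31 for Pdhb and -0.33 for Mpc2 on the log2 scale, and without NT+/+ Fast 5 they were 5.12, 0.59, -0.37 and -0.37, all with an adjusted p under 0.05 (edgeR). Markers of villus enterocytes, the differentiated absorptive cells above the crypt, were present in every crypt library. The summed level of 10 such markers was 4271 to 8249 CPM in NT+/+ AL, 6182 to 9026 in NT-/- AL, 7704 to 16658 in NT+/+ Fast and 14768 to 20058 in NT-/- Fast mice. With fasting, 8 of the 10 rose in NT+/+ and 10 of 10 rose in NT-/- mice, led by Fabp1, a fatty acid-binding protein (log2 fold change, 2.09 and 2.05). Of 10 genes listed as crypt epithelium markers, the general epithelial genes Epcam and Cdh1 among them, none rose at an adjusted p of 0.05. The proliferation gene Mki67 (-0.46 and -0.59) and the stem cell gene Olfm4 (-0.63 and -0.92) fell in both genotypes. The stem cell gene Smoc2 fell in NT-/- mice (-0.48). In NT+/+ mice 5 of the 10 lay above 0 and 5 below, and in NT-/- mice 2 and 8. The stem cell genes Ascl2 (0.63; edgeR adjusted p = 0.114, unadjusted p = 0.0349) and Lgr5 (0.29; adjusted p = 0.287) lay above 0 in NT+/+ mice. In NT-/- mice Ascl2 was at 0.12 and Lgr5 at -0.02. By qPCR, the paper found both higher after fasting in NT+/+ but not in NT-/- mice. Of 8 immune cell markers 1 fell in each genotype, Itgam (-0.83 and -0.54), and none of the 8 tested markers of stroma, endothelium, fat or striated muscle passed with edgeR, at either an adjusted or an unadjusted p of 0.05, in either genotype. The 6 listed markers of fat and striated muscle summed to 1.01 to 3.58 CPM over the 19 mice, and 1 of them had no count in any mouse. In bulk crypts, a change in the share of cells and a change of RNA per cell cannot be told apart.

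The sequence before the start is printed for 3 of the genes whose transcripts moved with fasting in both genotypes, Pdk4 and Pdk2 up and Pdhb down. Mpc2 also fell in both genotypes and has a RefSeq window, which is not printed. The windows come from RefSeq (GRCm38.p6) and run 5′ to 3′ on the gene's strand, ending before the RefSeq start. Where GENCODE starts the gene further upstream, the bases it places within the gene, 31 for Pdk4 and 33 for Pdhb, were left off. GENCODE starts Pdk2 downstream of the RefSeq start, so its window is whole. Capitals mark matches to CCAAT or its complement ATTGG, to the GC box GGGCGG or its complement CCGCCC, and to the E-box CACGTG, searched on both strands. No marked matches overlap.
Pdk4, chr6:5496310-5496528, minus strand: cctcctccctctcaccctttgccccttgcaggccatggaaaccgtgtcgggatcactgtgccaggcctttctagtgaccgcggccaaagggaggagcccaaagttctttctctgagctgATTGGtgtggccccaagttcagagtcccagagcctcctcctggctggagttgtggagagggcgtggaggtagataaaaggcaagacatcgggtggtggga
Pdk2, chr11:95041372-95041621, minus strand: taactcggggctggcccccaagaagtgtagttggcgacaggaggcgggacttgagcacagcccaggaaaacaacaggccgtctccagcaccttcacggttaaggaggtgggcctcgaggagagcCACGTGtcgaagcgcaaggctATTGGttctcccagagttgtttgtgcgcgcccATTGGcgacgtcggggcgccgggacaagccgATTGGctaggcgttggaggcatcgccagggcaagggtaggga
Pdhb, chr14:8173026-8173242, minus strand: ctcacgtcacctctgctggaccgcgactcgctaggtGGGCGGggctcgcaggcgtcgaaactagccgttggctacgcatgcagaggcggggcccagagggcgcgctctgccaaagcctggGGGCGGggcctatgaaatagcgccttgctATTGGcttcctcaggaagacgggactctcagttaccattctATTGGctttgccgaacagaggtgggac

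Over the full 250 bases before the RefSeq start, the Pdk4 window held 6 CpG dinucleotides, which is also the median of all 32851 promoters. The first windows of Pdk1 and Pdk2 held 19 CpG each and that of Pdk3 held 29, so Pdk4 had the fewest of the first windows of the 4 kinases. CCAAT stood once before Pdk4 (131 bases before the start), and 3 times before Pdk2. It stood 3 times before Pdhb as well, 101, 60 and 12 bases before the start, the last in the bases left off, beside 2 GC boxes. CCAAT was in 33.8% of all promoters of this length, GGGCGG in 32.7% and CACGTG in 6.02%. No window of Pdk4, Pdk2 or Pdhb held the nuclear receptor site AGGTCA (14.0% of all promoters), the PPAR direct repeat made of it (0.0335%) or the forkhead site GTAAACA (3.17%), which says only that these letters are not in these bases. Of the 10 genes, 9 had a RefSeq window, and Pdp1 is named only.

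Fasting moved 5 of the 10 genes in NT+/+ crypts, 3 up and 2 down, where edgeR's quasi-likelihood test called 21.6% of all 17875 genes tested (11.2% higher and 10.4% lower). In NT-/- crypts it also moved 3 up and 2 down, against 25.2% of all genes (12.5% higher and 12.6% lower). DESeq2 called 5 of the 10 in NT+/+ mice, against 23.3% of all genes, and 6 in NT-/- mice, against 26.5%. The median log2 fold change of the 10 genes was 0.12 in NT+/+ and 0.08 in NT-/- mice, and that of all genes was -0.01 and -0.02. Pdk4 and Pdk2 rose and Pdhb and Mpc2 fell in both genotypes. Pdk3 passed the threshold in NT+/+ mice and Pdk1 in NT-/- mice, and Pdk3 passed in NT-/- mice as well when the mice were paired by the number in their file names or tested with DESeq2. No gene of the 10 differed between the genotypes at the threshold in either diet.

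**Figure D1:**
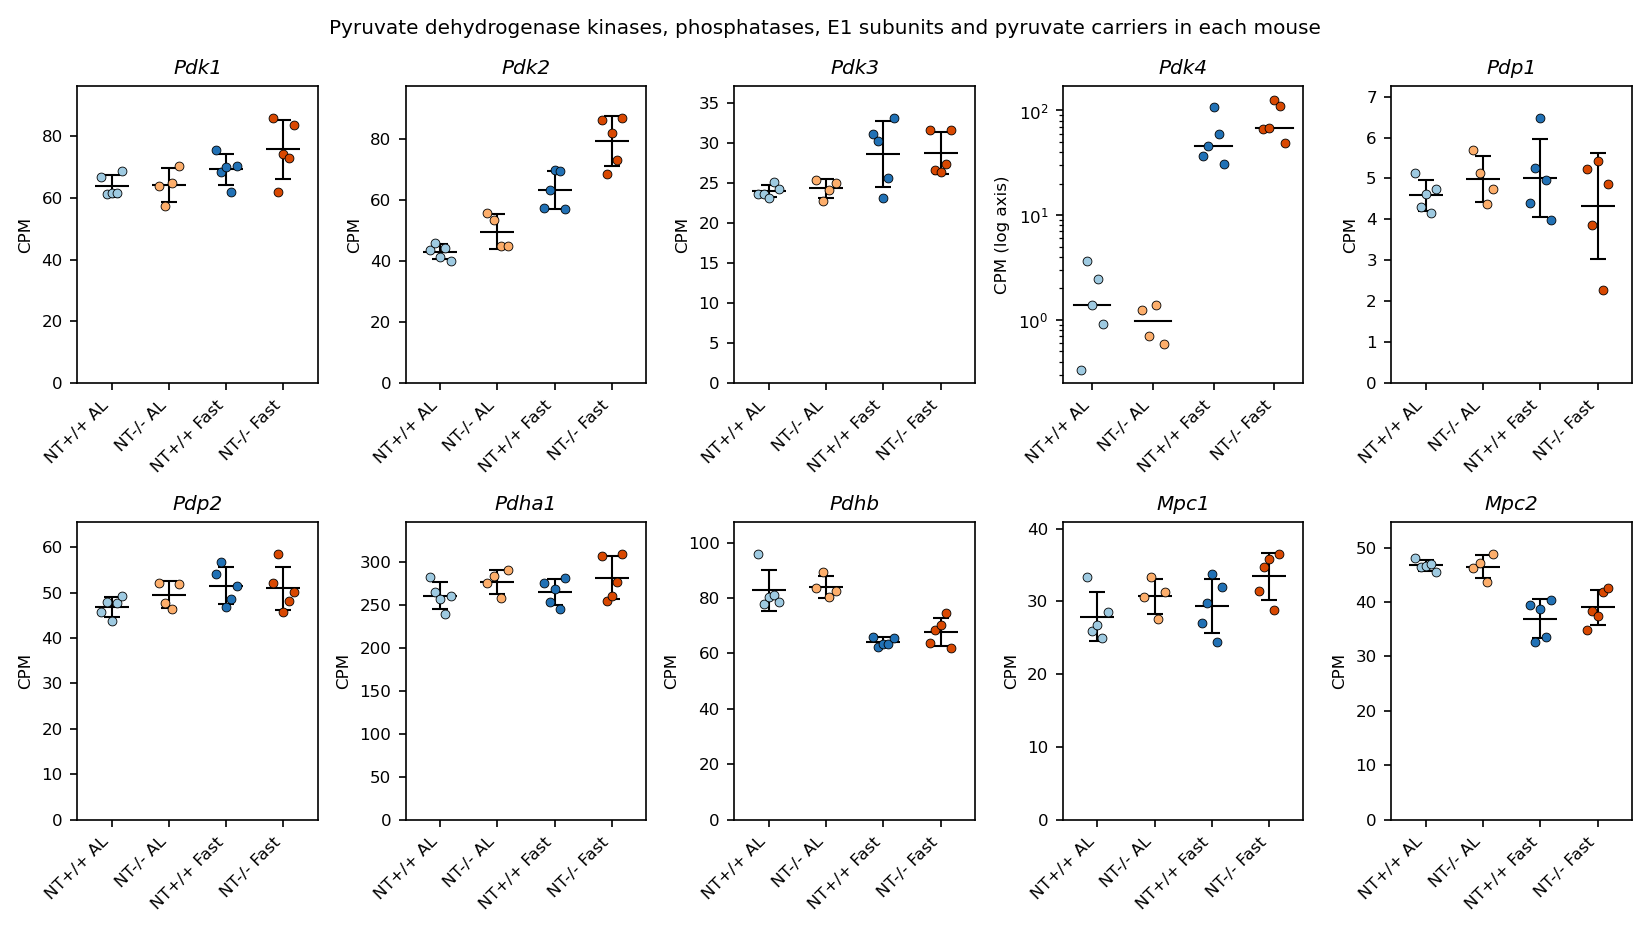
Level of each of the 10 genes in each mouse, in CPM, by group. Points are mice, bars are the mean with SD, and for Pdk4, on a log axis, the line is the median. Every fasted mouse lies above every fed mouse for Pdk4 and Pdk2, and below for Pdhb and Mpc2. The share of all genes that separate in this way was not counted.

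Pdk4 (ENSMUSG00000019577; GRCm38, chr6:5483351-5496309, minus strand) codes for the kinase isoform most responsive to starvation. In the 5 NT+/+ AL mice, replicates 1 to 5, it measured 0.336, 3.65, 1.39, 2.49 and 0.918 CPM. In the 4 NT-/- AL mice it measured 1.24, 0.704, 1.40 and 0.586 CPM. These fed levels rest on 7 to 82 counts per mouse, so Pdk4 was near the lower end of what these libraries resolve. In the 5 NT+/+ Fast mice it measured 36.4, 45.4, 107, 59.9 and 30.9 CPM, and in the 5 NT-/- Fast mice 66.5, 67.3, 127, 111 and 49.0 CPM. The lowest fasted mouse, at 30.9 CPM, was far above the highest fed mouse, at 3.65 CPM, and the groups did not overlap in either genotype. What share of all genes separates in this way was not counted, here and for the genes below. The log2 fold change with fasting was 4.97 ± 0.46 (SE; 31.3-fold; edgeR adjusted p = 4.05e-07) in NT+/+ and 6.36 ± 0.54 (82.2-fold; adjusted p = 1.24e-07) in NT-/- mice.

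The villus marker sum ranged higher in fasted mice as well, and its part in the Pdk4 result was not tested. NT+/+ Fast 1 had a villus sum of 7704 CPM, within the range of the fed mice, and Pdk4 at 36.4 CPM. It and NT+/+ Fast 5 (villus sum 9755 CPM, Pdk4 30.9 CPM) had the lowest villus sums and the lowest Pdk4 of the fasted mice. NT+/+ Fast 2, 3 and 4 had sums of 14013 to 16658 CPM and Pdk4 at 45.4 to 107 CPM. Among NT-/- Fast mice, the lowest Pdk4, 49.0 CPM, stood beside a sum of 19449 CPM.

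Pdk4 spread more widely among fasted mice than any other gene of the 10, with an SD of 30.7 CPM around a mean of 56.0 CPM in NT+/+ Fast mice. When mice were lined up by replicate number, whose meaning the labels do not explain, the fasted mice of both genotypes fell in the same order, with number 5 lowest, then 1, 2 and 4, and number 3 highest. In NT+/+ Fast mice, both of these extremes were male. Between mice of the same number, Pdk4 was higher in the NT-/- Fast mouse in 5 of 5, by 0.24 to 0.88 on the log2 scale. The share of all genes higher in 5 of 5 was not counted. Pdp2 was the only other gene of the 10 with the same order in both fasted groups. The share of all genes with the same order was not counted. Over all genes tested, fasted mice of the same number deviated together from their group means (mean r = 0.271).

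Pdk2 (ENSMUSG00000038967; chr11:95026258-95041354, minus strand), the most widely expressed kinase isoform, was already substantial in fed crypts. It measured 43.7, 46.0, 41.2, 44.3 and 39.9 CPM in NT+/+ AL mice and 55.5, 53.3, 44.8 and 44.8 CPM in NT-/- AL mice. After fasting it measured 57.4, 63.2, 69.8, 69.3 and 57.1 CPM in NT+/+ mice and 86.2, 68.5, 81.9, 73.0 and 86.9 CPM in NT-/- mice. Fed and fasted mice did not overlap in either genotype. The log2 fold change was 0.56 ± 0.09 (adjusted p = 1.34e-04) in NT+/+ and 0.68 ± 0.09 (adjusted p = 2.93e-05) in NT-/- mice, far below that of Pdk4. An antisense gene, Gm11513, lies within Pdk2 and had 5 to 25 counts per mouse, against 604 to 1883 for Pdk2.

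Pdk1 (ENSMUSG00000006494; chr2:71873224-71903858, plus strand), the kinase best known as a target of hypoxia signaling, had the highest group means of the 4 per length in fed crypts. In NT-/- AL 2, Pdk1 and Pdk2 were about level, at 27.4 and 27.5 CPM per kb of effective length. It measured 66.9, 61.2, 61.6, 61.7 and 68.7 CPM in NT+/+ AL mice and 75.6, 68.6, 70.2, 61.8 and 70.4 CPM in NT+/+ Fast mice. It measured 63.8, 57.3, 65.0 and 70.5 CPM in NT-/- AL mice and 86.0, 62.1, 74.4, 72.9 and 83.7 CPM in NT-/- Fast mice. Fed and fasted mice overlapped in both genotypes. The log2 fold change was 0.11 ± 0.08 (95% interval, -0.06 to 0.29; adjusted p = 0.347) in NT+/+ and 0.24 ± 0.09 (adjusted p = 0.0456) in NT-/- mice. The call in NT-/- mice was kept without NT-/- AL 4 or NT-/- Fast 2, and it was lost without any of the other 7 mice (adjusted p, 0.0529 to 0.157).

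Pdk3 (ENSMUSG00000035232; chrX:93764607-93832201, minus strand) showed similar changes in the 2 genotypes on either side of the threshold. It measured 23.6, 23.6, 23.2, 25.2 and 24.3 CPM in NT+/+ AL mice and 31.1, 30.2, 23.2, 25.6 and 33.1 CPM in NT+/+ Fast mice, with overlap. It measured 25.4, 22.7, 24.1 and 25.0 CPM in NT-/- AL mice and 31.6, 26.7, 26.4, 27.3 and 31.6 CPM in NT-/- Fast mice, with no overlap. The log2 fold change was 0.26 ± 0.09 (adjusted p = 0.0464) in NT+/+ and 0.24 ± 0.10 (95% interval, 0.04 to 0.44; adjusted p = 0.0679) in NT-/- mice. With same-numbered mice by file name as a block, the change in NT-/- mice was 0.28 and passed (adjusted p = 0.0115). The call in NT+/+ mice was kept without NT+/+ Fast 3 or NT+/+ Fast 4, and it was lost without any of the other 8 mice (adjusted p, 0.0552 to 0.123). NT+/+ Fast 3, the mouse with the highest Pdk4 of its group, had the lowest Pdk3.

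**Figure D2:**
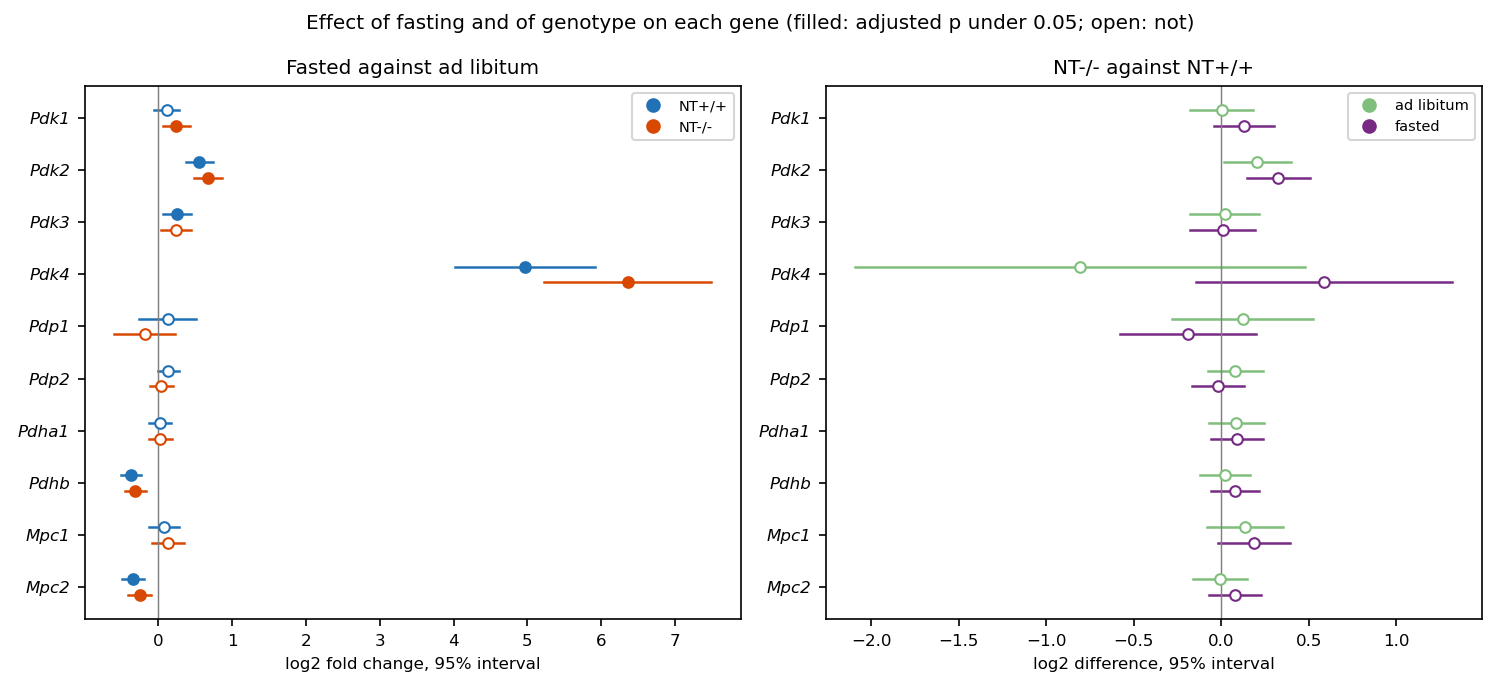
Log2 differences of the 10 genes with 95% intervals, for fasting in each genotype (left) and for NT-/- against NT+/+ in each diet (right). Filled points passed an adjusted p of 0.05 and open points did not. Pdk4 lies at 4.97 and 6.36 for fasting, and every point of the genotype panel is open.

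The phosphatases, which reactivate the complex, did not pass the threshold in either genotype. Pdp2 (ENSMUSG00000048371; chr8:104591451-104599026, plus strand) ranged from 43.7 to 49.2 CPM in NT+/+ AL and from 46.9 to 56.8 CPM in NT+/+ Fast mice. It ranged from 46.3 to 52.1 CPM in NT-/- AL and from 45.8 to 58.4 CPM in NT-/- Fast mice. Its log2 fold change was 0.14 (95% interval, -0.01 to 0.29; adjusted p = 0.173) in NT+/+ and 0.04 (-0.12 to 0.19; adjusted p = 0.759) in NT-/- mice, so a change of the size of Pdk2's lay outside both intervals. Pdp1 (ENSMUSG00000049225; chr4:11958184-11966452, minus strand) was scarce, at 2.27 to 6.48 CPM over all mice. Its log2 fold change was 0.13 (-0.26 to 0.51; adjusted p = 0.672) in NT+/+ and -0.19 (-0.59 to 0.22; adjusted p = 0.540) in NT-/- mice. The low value came from NT-/- Fast 4, at 2.27 CPM from 23 counts, which is among the libraries of lowest depth.

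Per kilobase of effective length, the scale on which different genes can be compared, the 4 kinases together measured 65.4 ± 1.48 CPM per kb (SD, n = 5) in NT+/+ AL and 100.4 ± 11.5 (n = 5) in NT+/+ Fast mice. They measured 68.7 ± 2.74 (n = 4) in NT-/- AL and 122 ± 12.7 (n = 5) in NT-/- Fast mice. The kinase sum was thus higher in every fasted mouse (90.8 and above) than in every fed mouse (72.3 and below). Pdk4 made up 0.972% ± 0.722 of the kinase sum in NT+/+ AL and 19.5% ± 8.06 in NT+/+ Fast mice, and 0.517% ± 0.210 in NT-/- AL and 24.7% ± 7.99 in NT-/- Fast mice. Its share in fasted mice ran from 12.3% in NT+/+ Fast 5 to 33.6% in NT-/- Fast 3. The share of Pdk1 was 46.8% ± 2.32 in NT+/+ AL and 33.3% ± 4.50 in NT+/+ Fast mice, while that of Pdk2 was 34.0% ± 1.72 and 32.7% ± 2.24. A share falls whenever another member rises, and the level of Pdk1 itself was not lower after fasting. These sums and ratios were computed per mouse as descriptions and were not tested.

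The 2 phosphatases together measured 10.3 ± 0.368 CPM per kb in NT+/+ AL, 11.3 ± 0.647 in NT+/+ Fast, 10.96 ± 0.695 in NT-/- AL and 10.9 ± 0.968 in NT-/- Fast mice. The ratio of summed kinases to summed phosphatases ranged from 6.10 to 6.43 in NT+/+ AL and from 7.83 to 10.8 in NT+/+ Fast mice. It ranged from 6.16 to 6.58 in NT-/- AL and from 8.51 to 13.2 in NT-/- Fast mice. All 9 fed mice lay within a narrow band, and all 10 fasted mice lay above it. The ratio of kinases to their substrate subunit Pdha1 was 0.652 ± 0.0376 and 0.987 ± 0.130 in NT+/+ mice, fed and fasted, and 0.645 ± 0.0368 and 1.13 ± 0.149 in NT-/- mice.

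**Figure D3:**
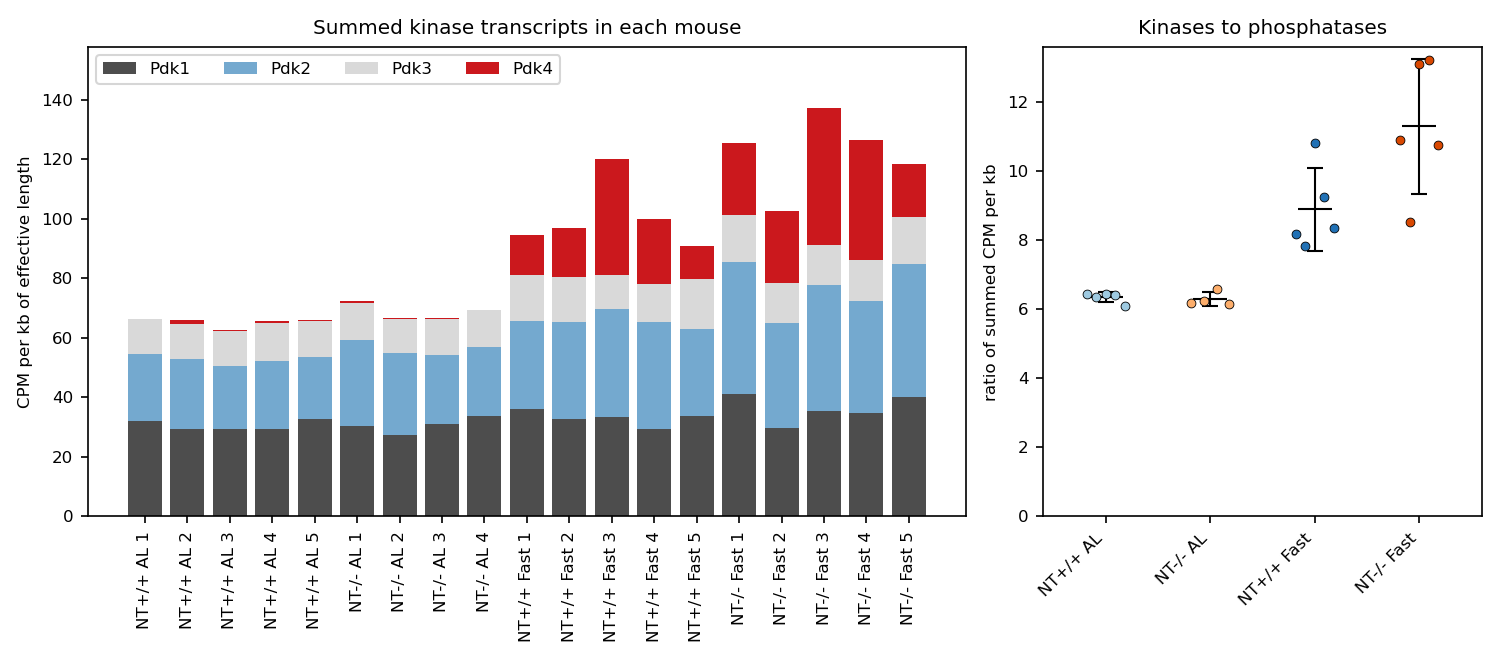
Left, stacked CPM per kb of effective length of the 4 kinases in each mouse. Right, ratio of summed kinases to summed phosphatases by group, with mice as points and mean with SD. Fed mice lie between 6.10 and 6.58 and fasted mice between 7.83 and 13.2.

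The E1 subunits did not move together. Pdha1 (ENSMUSG00000031299; chrX:160122209-160138413, minus strand), which carries the sites that the kinases phosphorylate, was the most abundant of the 10 genes per length in every group, at 101 ± 5.95 CPM per kb in NT+/+ AL mice. It measured 282, 264, 256, 239 and 260.4 CPM in NT+/+ AL mice and 275, 253, 268, 245 and 282 CPM in NT+/+ Fast mice. Fed and fasted mice overlapped in both genotypes. Its log2 fold change was 0.02 (95% interval, -0.13 to 0.17; adjusted p = 0.863) in NT+/+ and 0.03 (-0.13 to 0.18; adjusted p = 0.847) in NT-/- mice.

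Pdhb (ENSMUSG00000021748; chr14:8165996-8173025, minus strand), its obligate E1 beta partner, fell in both genotypes. It measured 95.8, 77.8, 80.5, 81.2 and 78.6 CPM in NT+/+ AL mice and 66.0, 62.4, 63.5, 63.5 and 65.7 CPM in NT+/+ Fast mice. It measured 83.6, 89.3, 80.2 and 82.6 CPM in NT-/- AL mice and 63.9, 68.5, 70.4, 74.6 and 62.0 CPM in NT-/- Fast mice. Every fasted mouse was below every fed mouse. The log2 fold change was -0.37 ± 0.06 (adjusted p = 4.93e-04) in NT+/+ and -0.31 ± 0.07 (adjusted p = 0.00259) in NT-/- mice. Without NT+/+ AL 1, the highest fed mouse, its adjusted p in NT+/+ mice was 0.00144. The ratio of Pdha1 to Pdhb per kb was 1.65 ± 0.107 in NT+/+ AL and 2.15 ± 0.0879 in NT+/+ Fast mice, and 1.72 ± 0.0796 in NT-/- AL and 2.18 ± 0.338 in NT-/- Fast mice.

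The carrier subunits did not move together either. Mpc2 (ENSMUSG00000026568; chr1:165460637-165481214, plus strand) measured 48.1, 46.4, 46.7, 46.9 and 45.5 CPM in NT+/+ AL mice and 39.4, 32.6, 38.7, 33.5 and 40.3 CPM in NT+/+ Fast mice. It measured 46.2, 47.2, 43.8 and 48.8 CPM in NT-/- AL mice and 34.9, 38.4, 37.5, 41.8 and 42.5 CPM in NT-/- Fast mice. Every fasted mouse was below every fed mouse of its genotype, and the log2 fold change was -0.34 ± 0.07 (adjusted p = 0.00166) in NT+/+ and -0.25 ± 0.07 (adjusted p = 0.0156) in NT-/- mice.

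Mpc1 (ENSMUSG00000023861; chr17:8282904-8297661, plus strand) ranged from 25.0 to 33.3 CPM in NT+/+ AL, from 24.4 to 33.8 in NT+/+ Fast, from 27.5 to 33.3 in NT-/- AL and from 28.8 to 36.5 in NT-/- Fast mice, and all 4 ranges overlapped. Its log2 fold change was 0.08 (95% interval, -0.13 to 0.28; adjusted p = 0.635) in NT+/+ and 0.13 (-0.09 to 0.34; adjusted p = 0.413) in NT-/- mice. The ratio of Mpc2 to Mpc1 per kb was 1.42 ± 0.145 in NT+/+ AL and 1.06 ± 0.126 in NT+/+ Fast mice, and 1.27 ± 0.0636 in NT-/- AL and 0.986 ± 0.134 in NT-/- Fast mice. Fed and fasted ranges overlapped slightly in both genotypes, with the lowest fed mice at 1.21 and 1.19 and the highest fasted mouse of each genotype at 1.22. RSEM's expected counts were fractional, by more than 0.005 of a count, for Mpc1 in all 19 mice, for Pdhb in 18 and for Pdha1 in 17, so some of their reads were shared out between genes, and were whole for the other 7 genes in every mouse.

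**Figure D4:**
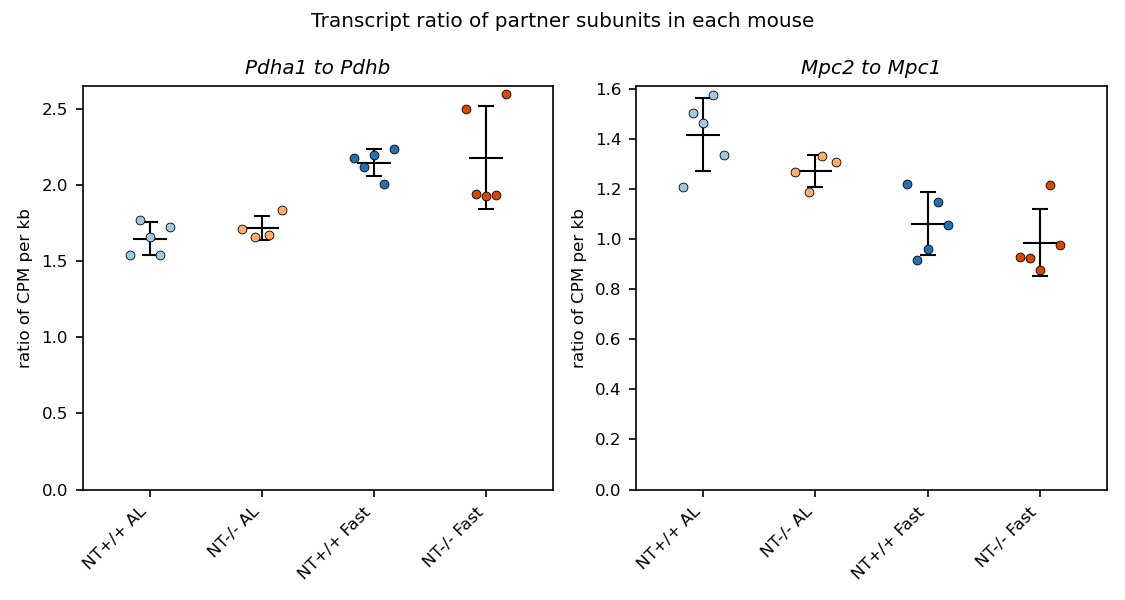
Ratio of CPM per kb of Pdha1 to Pdhb (left) and of Mpc2 to Mpc1 (right) in each mouse, with mean and SD by group. The fasted groups lie higher on the left, at 2.15 and 2.18 against 1.65 and 1.72, and lower on the right, at 1.06 and 0.986 against 1.42 and 1.27.

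In fed NT+/+ crypts the order of levels per kb ran from Pdha1 (101) through Mpc2 (64.0), Pdhb (61.3), Mpc1 (45.6), Pdk1 (30.6), Pdk2 (22.2), Pdk3 (11.9), Pdp2 (8.37) and Pdp1 (1.94) to Pdk4 (0.636). Mpc2 and Pdhb did not differ beyond their SDs of 1.28 and 5.46. In fasted NT+/+ crypts, Pdk4 (20.3 ± 11.1) stood between Pdk2 (32.7 ± 3.20) and Pdk3 (14.3 ± 2.06), with a spread that reached both. Pdk1 (33.1 ± 2.37) and Pdk2 could no longer be separated. In fasted NT-/- crypts, the mean of Pdk2 (41.0 ± 4.22) stood above those of Pdk1 (36.2 ± 4.56) and Pdk4 (30.5 ± 12.0), and the spreads between mice overlapped. Within each of these mice, however, Pdk2 was above Pdk1, at 37.7 against 34.8 in NT-/- Fast 4 and 42.3 against 35.5 in NT-/- Fast 3. Pdk4 was above Pdk2 in NT-/- Fast 3 and NT-/- Fast 4 and below it in the others.

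The loss of NT moved none of the 10 genes at the threshold, where edgeR called 0.00559% of all genes in each diet, the single gene being Nts itself. At an unadjusted p under 0.05, 1 of the 10 passed in fed mice, where 1.67% of all genes did, and 1 in fasted mice, where 9.14% did, in both cases Pdk2. DESeq2 called none of the 10 in fed mice, where it called 3 genes in all (0.0168%), and 1, Pdk2, in fasted mice, where it called 98 of the 10249 genes to which it gave an adjusted p (0.956%). Pdk2 was higher in NT-/- crypts by 0.21 (95% interval, 0.02 to 0.40) in fed mice. In fasted mice it was higher by 0.33 (0.15 to 0.50; edgeR adjusted p = 0.240), and higher in 5 of 5 pairs of the same number. With DESeq2 the difference in fasted mice was 0.34 with an adjusted p of 0.0371, and over all alternatives the adjusted p ran from 0.0371 to 0.792. Among fasted mice, NT-/- Fast 2, at 68.5 CPM, overlapped the 2 highest NT+/+ mice, at 69.3 and 69.8 CPM, and the other 4 NT-/- mice lay above all NT+/+ mice. Grouped by its other label, NT+/+ Fast 5 brought this difference to 0.22. The villus marker sum also ranged higher in NT-/- Fast than in NT+/+ Fast mice, and its part in this difference was not tested.

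Pdk4 was lower in NT-/- crypts by 0.81 (95% interval, -2.09 to 0.48) in fed mice and higher by 0.59 (-0.15 to 1.32; adjusted p = 0.664) in fasted mice, and the ranges overlapped in both diets. Without NT+/+ AL 2 the value in fed mice was -0.31. The intervals are wide and hold both no difference and a difference of more than 1 on the log2 scale. With the mice blocked by the number of their titles, the difference in fasted mice was 0.64 (adjusted p = 0.244). The other 8 genes differed between genotypes by -0.19 to 0.19 on the log2 scale in fasted mice, with Pdp1 lowest and Mpc1 highest. The Pdp1 value was 0.0451 without the 2 shallowest libraries. Mpc1 was higher in the NT-/- mouse in 5 of 5 pairs of the same number, by 0.0824 to 0.228, with an edgeR adjusted p of 0.597. How many of all genes were higher in 5 of 5 pairs was not counted, for Mpc1, Pdk4 or Pdk2. The villus marker sum ranged higher in NT-/- Fast mice here too, and its part in the Pdk4 and Mpc1 differences was not tested.

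The effect of fasting itself was also compared between genotypes. None of the 10 genes passed, where 0% of all genes did with edgeR and none of the 10 did with DESeq2, and none of the 10 had an unadjusted p under 0.05 with edgeR. For Pdk4 the log2 fold change was larger in NT-/- mice by 1.39 (95% interval, -0.08 to 2.87), a value that rests on the few counts of the fed mice: it was 0.90 without NT+/+ AL 2, the fed mouse with the most Pdk4. For Pdk2 it was larger by 0.12 (-0.14 to 0.38), and for Pdhb and Mpc2 the differences were 0.06 (-0.14 to 0.26) and 0.09 (-0.12 to 0.30).

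Of 4 other genes for subunits of the pyruvate dehydrogenase complex, 3 could be tested, since the testis-specific Pdha2 had no count in any mouse, and 2 of the 3 fell in each genotype. Dlat, the E2 acetyltransferase core, changed by -0.32 (adjusted p = 0.00562) in NT+/+ and -0.27 (adjusted p = 0.0190) in NT-/- mice. Pdhx, which anchors E3 to the core, changed by -0.36 (adjusted p = 0.0103) and -0.44 (adjusted p = 0.0032). Dld, the E3 subunit that other dehydrogenase complexes share, did not pass, at -0.21 (adjusted p = 0.0659) and -0.15 (adjusted p = 0.219). Of 5 genes of lipoylation and phosphatase regulation, none passed in NT+/+ and 1 rose in NT-/- mice, the lipoic acid synthase Lias (0.19; adjusted p = 0.0463). In NT+/+ mice none of these 5 passed an unadjusted p of 0.05 either. Over all genes, edgeR called 21.6% in NT+/+ and 25.2% in NT-/- mice.

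Of 15 genes that supply or otherwise use pyruvate, 14 were tested, and 2 rose and 1 fell in NT+/+ and 3 rose and 1 fell in NT-/- mice, a share near the 21.6% and 25.2% of all genes. Their median log2 fold change was 0.18 in NT+/+ and 0.11 in NT-/- mice. Gpt, the alanine aminotransferase that interconverts alanine and pyruvate, rose by 1.17 ± 0.23 and 1.32 ± 0.25. Ldha, which reduces pyruvate to lactate, changed by -0.42 ± 0.09 and -0.45 ± 0.10. The mitochondrial malic enzyme Me3, which makes pyruvate from malate, rose by 1.37 ± 0.24 in NT+/+ mice and was 0.66 ± 0.25 (adjusted p = 0.0600) in NT-/- mice. Me2, another mitochondrial malic enzyme, rose in NT-/- mice by 0.46 ± 0.10 and was 0.24 ± 0.09 (adjusted p = 0.0735) in NT+/+ mice. The third gene that rose in NT-/- mice was Pklr, a pyruvate kinase (0.41 ± 0.10), named after its values were seen.

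The branched-chain 2-oxoacid dehydrogenase is built and switched like pyruvate dehydrogenase, with its own kinase and phosphatase. Of 7 genes of this and the related 2-oxoglutarate complex, 1 rose and 1 fell in each genotype. That share was near the 21.6% (NT+/+) and 25.2% (NT-/-) of all genes called. Bckdha, its E1 alpha subunit, rose by 0.53 ± 0.11 in NT+/+ and 0.41 ± 0.12 in NT-/- mice. Ppm1k, its phosphatase, changed by -0.75 ± 0.14 and -0.84 ± 0.15. Bckdk, its kinase, named after its values were seen, did not pass, at 0.11 (adjusted p = 0.330) and 0.05 (adjusted p = 0.727).

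Of 9 regulators known to act on Pdk genes, 2 rose and 1 fell in NT+/+ and 4 rose and 1 fell in NT-/- mice. Calls over all genes made up 21.6% in NT+/+ and 25.2% in NT-/- mice. The nuclear receptor Pparg rose by 1.152 ± 0.15 and 1.47 ± 0.16 and Ppara by 0.55 ± 0.13 and 0.56 ± 0.13, while Ppard changed by -1.08 ± 0.13 and -1.28 ± 0.14. Foxo1, a forkhead factor held in check by insulin, rose in NT-/- mice by 0.21 ± 0.07 and was 0.15 ± 0.06 (adjusted p = 0.0992) in NT+/+ mice. Foxo3 rose in NT-/- mice by 0.28 ± 0.09 and is named after its values were seen. Of 10 fasting targets of PPAR receptors, 10 rose in each genotype, with a median log2 fold change of 1.29 in NT+/+ and 1.505 in NT-/- mice. Acadl, a dehydrogenase of mitochondrial fatty acid oxidation, rose by 2.06 and 2.28, Creb3l3 by 1.74 and 1.97, and Slc25a20 by 1.65 and 1.78.

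Across the 19 mice, the genes whose log2 CPM was most like that of Pdk4 were Mt1 (Pearson r = 0.988) and Mt2 (0.984), which code for metallothioneins, followed by N4bp2l1 (0.973), Pex11a (0.972) and Rab4a (0.971). The most opposite were Scd2, a fatty acid desaturase (-0.981), Pik3r3 (-0.969) and Plekha2 (-0.966). Among the 10 genes themselves, Pdk2 was the most alike (0.872, rank 483 of 17845 genes), and Pdhb (-0.884) and Mpc2 (-0.828) were the most opposite. Such correlations mostly restate the gap between 9 fed and 10 fasted mice, and all points share their libraries' scaling.

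Within the 10 fasted mice alone, r with Pdk4 was 0.885 for Mt1, 0.821 for Mt2, 0.834 for N4bp2l1, 0.515 for Pex11a and 0.897 for Rab4a. It was -0.378 for Scd2, -0.831 for Pik3r3 and -0.877 for Plekha2. Within the 9 fed mice, r ran from 0.443 (Rab4a) to 0.780 (Mt2) for the most alike genes. For the most opposite genes it ran from -0.897 (Pik3r3) to -0.468 (Plekha2). Pdk4 and these genes share the libraries and their scaling here too.

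**Figure D5:**
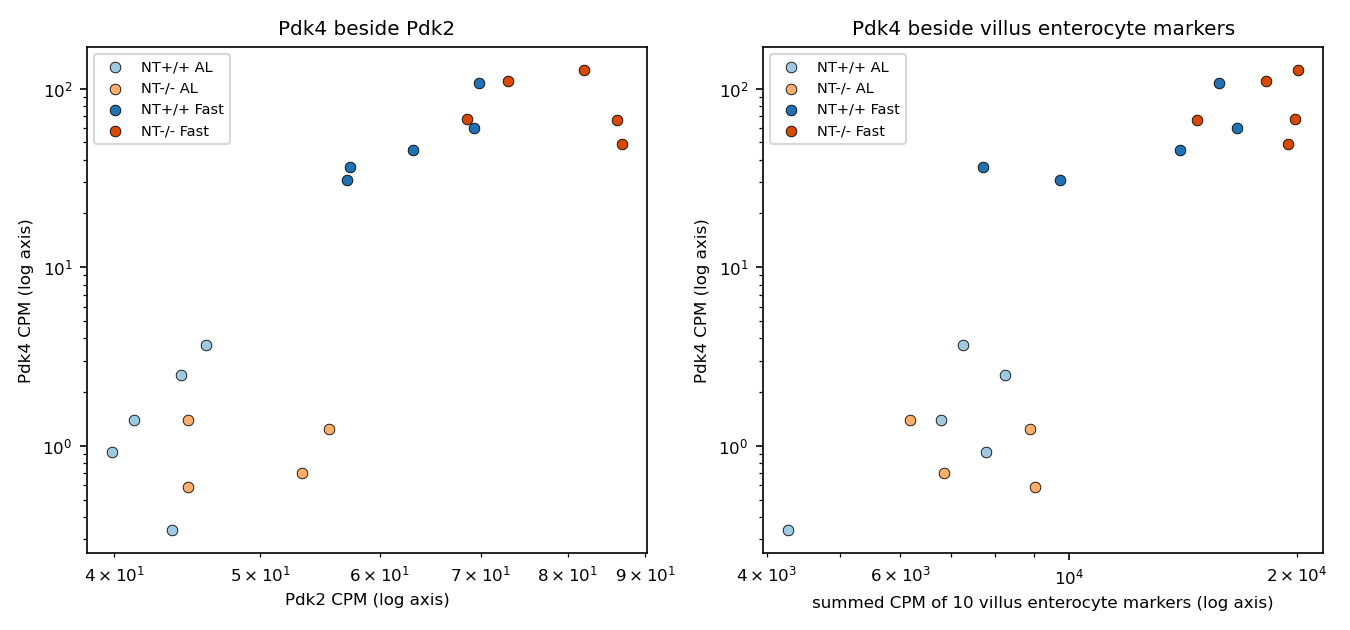
Pdk4 against Pdk2 (left) and against the summed level of 10 villus enterocyte markers (right), in CPM on log axes, with 1 point per mouse colored by group. Fed and fasted mice form separate clouds on the left, with Pdk2 at 55.5 CPM or less in fed and 57.1 CPM or more in fasted mice. NT+/+ Fast 1, at a villus sum of 7704, lies within the fed range of that sum in the right panel and at 36.4 CPM of Pdk4. It and NT+/+ Fast 5 have the lowest villus sums and the lowest Pdk4 of the fasted mice.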

How the data were processed

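RNA was sequenced from crypts of 19 mice, 1 library each, ribosomal RNA–depleted and read single-end. The authors trimmed reads with Trimmomatic 0.39 and quantified them with RSEM on Ensembl GRCm38 (release 100) transcripts. The deposited values used were RSEM's expected counts, which are not normalized and divide reads that fit several genes, and RSEM's effective length in bases, another deposited unit, used only for levels per kilobase (its median over the mice). The RSEM version and strand setting are not given in the sources used here. The deposited TPM and FPKM columns were not used.

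Expected counts were rounded to whole numbers, 17875 genes passed edgeR's filterByExpr, and TMM scaling, 1 coefficient for each of 4 groups taken from the titles, and edgeR's quasi-likelihood test (edgeR 4.0.16, R 4.3.3) were used, with Benjamini-Hochberg adjustment over all genes and a threshold of 0.05. There were 15 residual degrees of freedom. CPM values use TMM library sizes, and correlations use log2 CPM with a prior count of 2. At 9059418 to 35068669 counts per mouse, counting error matters mainly for Pdk4 in fed mice and for Pdp1. Comparisons were fasting in each genotype, genotype in each diet, and how far fasting effects differed by genotype; fed groups serve as controls of both. The scripts were tested on simulated data.

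The 10 genes and the lists beside them were chosen with earlier results of these data known. Named were the 10 genes; from each list every gene called in a fasting comparison or, above 4, the 4 with the smallest p in NT+/+ mice; and the 5 genes most and 3 least correlated with Pdk4. Some results under this rule are not reported here. Promoter windows are RefSeq's, and positions GENCODE's, on GRCm38.

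Same-numbered mice by title deviated together from their group means in 5 of 5 pairs (r over 0.1) for fasting in NT+/+ mice (mean r = 0.270) and for genotype in fasted mice (0.271), so the numbers were taken to pair the mice there, from the data and not from a label; in the other comparisons 2 of 4 pairs did. Alternatives were no filter on low counts, or a minimum of 10 in all mice, DESeq2 1.42.0, upper quartile scaling, the likelihood ratio test of edgeR, title or file-name numbers as a block, sex as a covariate (without NT-/- Fast 5, whose sex is not given), NT+/+ Fast 5 grouped as NT-/-, only the groups compared, each mouse left out in turn and, chosen after seeing the data, the 2 shallowest libraries left out and each mouse's own effective length.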

Additional observations from a re-analysis of the deposited data

Results flagged for a closer look

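Pdhb in NT+/+ AL 1 measured 95.8 CPM, far from the other mice of its group, whose nearest was 81.2 CPM: the gap made up 0.812 of the group's range, above Dixon's critical value of 0.71. This was 1 of 40 tests (10 genes in 4 groups), and chance flags about 1 in 20. Without this mouse the effect of fasting on Pdhb in NT+/+ mice was -0.31 on the log2 scale and kept its call.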

How the results depend on the processing

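Pdk4, Pdk2, Pdhb and Mpc2 kept their direction and their call with fasting in both genotypes under every alternative that could be fitted; requiring 10 counts in all mice drops Pdk4, which had 7 in NT+/+ AL 1. Pdk3 in NT+/+ mice lost its call without the filter, with the likelihood ratio test, with NT+/+ Fast 5 regrouped, with only the groups compared and without the 2 shallowest libraries. Pdk1 in NT-/- mice lost its call without the filter, with sex as a covariate, with the regrouping and with only the groups compared. Pdk3 in NT-/- mice gained a call with 10 counts required, DESeq2, the file-name block and the regrouping. Depth limits Pdk4 in fed mice and Pdp1. With each mouse's own effective length, 3 of 40 group means of the sums, shares and ratios moved by more than their SD: the Pdk3 share of the kinases (19.2% in NT+/+ AL and 18.3% in NT-/- AL mice) and the kinase to phosphatase ratio in NT-/- AL mice (6.07).

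The block for title numbers changed no call of the 10 genes in the comparisons it pairs, where the genes called went from 3862 to 5006 for fasting in NT+/+ mice and stayed at 1 for genotype in fasted mice. By file-name numbers, which changed only among fed NT-/- mice, every pair within the comparisons had r over 0.1, and Pdk3 in NT-/- mice was called (0.28; adjusted p = 0.0115 with edgeR).

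Genes called between genotypes numbered 3 in fed and 98 in fasted mice with DESeq2 (1 of the 10 genes, Pdk2), 3 and 41 with the likelihood ratio test (and 1 for the difference in the effect of fasting), and 0 and 0 with 10 counts required and with the regrouping. The cause was not tested.

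Values that changed sign were not called in any setting. All but Pdp1, at -0.19 in both comparisons where it turned, were below 0.1 in size before the change. Without the filter they were Mpc2 between fed genotypes (0.00156) and Pdha1 in the difference of effects (-0.00969). With 10 counts required it was Pdk1 between fed genotypes (-0.000137), and with upper quartile scaling Pdk3 between fasted genotypes (-0.00447) and Pdha1 in the difference (-0.00669). With DESeq2 it was Pdk3 in the difference (0.00253). With the title block they were Mpc2 between fed genotypes (0.00967) and Pdha1 in the difference (-0.0192), and with the file-name block Pdk1 (-0.00288) and Pdk3 (-0.0192) between fed genotypes and Pdk3 in the difference (0.0307). With sex they were Pdha1 for fasting in NT-/- mice (-0.00937) and in the difference (-0.0312), and Pdk3 between fasted genotypes (-0.0340). With the regrouping they were Pdha1 for fasting in NT+/+ mice (-0.00151) and Pdk3 in the difference (0.0816). Without the 2 shallowest libraries they were Pdp1 (0.0510) and Pdp2 (-0.00353) for fasting in NT-/- mice, Pdp1 between fasted genotypes (0.0451) and Pdk3 in the difference (0.0416).

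With each mouse left out in turn, the values that crossed 0 ran as follows. For fasting, Pdha1 ran from -0.00743 to 0.0520 in NT+/+ and from -0.00990 to 0.0593 in NT-/- mice, and Pdp2 from -0.0130 to 0.0753 in NT-/- mice. Between fed genotypes, Pdk1 ran from -0.0447 to 0.0534, Pdk3 from -0.00209 to 0.0515, Pdhb from -0.0111 to 0.0776 and Mpc2 from -0.0315 to 0.0205. Between fasted genotypes, Pdk3 ran from -0.0603 to 0.0655 and Pdp2 from -0.0711 to 0.0229. In the difference of effects, Pdk3 ran from -0.0815 to 0.0448, Pdha1 from -0.0322 to 0.0370, Pdhb from -2.96e-05 to 0.0897 and Mpc1 from -0.0212 to 0.107. The genes called between fasted genotypes ran from 1 to 4.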
